A study of Sus scrofa with 63 samples.

Results

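The apolipoproteins and the transfer protein that build and coat chylomicrons were followed in the jejunum of pig fetuses through the last weeks of gestation. The genes were APOB, MTTP, APOA1, APOA2, APOA4, APOM, APOC2, APOC3, APOE and APOD, and every array probe that carries one of these 10 gene names, in any letter case, was taken. This gave 25 probes of the 60305 on the array that are not controls. All 25 passed the filter on low signal that left 40515 probes to test, but the APOC2 probe passed only through purebred Meishan fetuses at day 90, and it was well above background in 20 of the 63 fetuses.

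Jejunal RNA of 63 male fetuses of Large White (LW), Meishan (MS) and their reciprocal crosses was measured, with 1 fetus on each array. The question was how the gut matures before birth in a lean European breed and in a Chinese breed whose piglets survive better. LWMS fetuses had an LW sire and an MS sow, and MSLW fetuses an MS sire and an LW sow. At day 90 of gestation there were 9 LW, 8 MSLW, 9 LWMS and 6 MS fetuses, and at day 110 there were 9 LW, 6 MSLW, 9 LWMS and 7 MS fetuses. All were collected by caesarean from sows given semen of both breeds, so that a litter could hold purebred and crossbred fetuses. Several fetuses were taken per litter. The labels do not name the sow, so litter mates enter the tests as if unrelated and p-values may be too small.

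Enterocytes absorb the products of fat digestion, rebuild triglyceride in the endoplasmic reticulum and pack it into chylomicrons. MTTP, the large subunit of the microsomal triglyceride transfer protein, loads lipid onto APOB, the single structural protein that stays with each particle. APOA1, APOA2 and APOA4 join the particle surface in the enterocyte, and APOM binds sphingosine-1-phosphate on lipoproteins. APOC2 activates lipoprotein lipase, APOC3 restrains that lipase and slows the clearance of remnants, and APOE is the ligand through which the liver takes up remnants. APOD is a lipocalin that binds small lipids and is made by many tissues, so it is no marker of chylomicron assembly. Sucking piglets live on fatty milk from birth, and the jejunum is the main site of fat absorption.

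The 60-base array probes define what was measured, and several probes of a gene are near copies. They were read from the array files, 5′ to 3′. The APOB and APOC3 probes with the highest signal end at the stop codon of the coding sequence, in capitals here, so they report the 3′ end of the message.

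APOB, A_72_P443119: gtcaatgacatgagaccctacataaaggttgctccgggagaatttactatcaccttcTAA

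APOC3, A_72_P177696: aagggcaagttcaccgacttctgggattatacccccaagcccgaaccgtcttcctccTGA

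APOC3, A_72_P685483: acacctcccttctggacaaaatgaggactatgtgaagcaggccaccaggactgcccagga

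Among the 4 APOA1 probes, 3 share the 25 bases in capitals. They are shown because the age comparison differed between them and the brightest APOA1 probe, of which the first 30 bases follow. The brightest probe shares no run of over 6 bases with them.

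APOA1, A_72_P035886: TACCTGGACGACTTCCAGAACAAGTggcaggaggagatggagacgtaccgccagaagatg

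APOA1, O11903: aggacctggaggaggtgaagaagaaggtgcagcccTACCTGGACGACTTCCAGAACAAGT

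APOA1, A_72_P754826: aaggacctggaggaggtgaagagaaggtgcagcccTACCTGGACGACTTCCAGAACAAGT

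APOA1, A_72_P192717: gttcggcttcttggaataagcagttccgga

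For APOD, 2 of the 4 probes cover the same 55 bases, in capitals, so they do not count as separate measurements of the transcript.

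APOD, O13671: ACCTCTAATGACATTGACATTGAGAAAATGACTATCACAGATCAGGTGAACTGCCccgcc

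APOD, A_72_P371558: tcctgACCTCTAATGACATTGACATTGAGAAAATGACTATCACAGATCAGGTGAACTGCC

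APOE and APOM each have a probe at the end of the message and a probe at its start, which are shown because both ends could be compared. Capitals mark AATAAA, the polyadenylation signal, in the stretch of 30 bases around it, and the first ATG in the other probes, after which its frame holds no stop codon.

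APOE, O15013: gggcccctgcttAATAAAgattcatcaagc

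APOE, A_72_P223767: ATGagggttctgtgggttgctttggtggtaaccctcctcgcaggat

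APOM, A_72_P303029: ccttacaagagtAATAAAgataatttgtca

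APOM, A_72_P499018: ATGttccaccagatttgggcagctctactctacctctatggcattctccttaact

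The letters AATAAA, searched on the probe strand only, stand in 6 of the 25 probes (24%), against 10.3% of all 60305 probes of the array, and GC content was 35 to 55%. Both APOA4 probes with the highest signal are identical, and the 2 APOA2 probes share 51 bases. In what follows, a gene is given by its brightest probe. Its log2 signal is the log2 of the background-corrected probe intensity minus the 75th percentile of its array, so that 0 is the level of that percentile. Levels are compared between fetuses for a gene, and not between genes, because probes differ in how they hybridise.

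On the arrays, 51.2 to 87.6% of probes were well above background, and no spot was saturated. The tissue carried the markers of absorptive enterocytes: 10 of 14 listed markers were on the array and all 10 passed the filter, although SI, sucrase-isomaltase, was well above background in 24 of 63 fetuses. The mean log2 signal of these markers was 1.89 to 3.0035 (median 2.35) in the 32 fetuses of day 90. At day 110, 23 fetuses were at 3.175 to 4.27 (median 3.92), above every fetus of day 90, while the remaining 8 were at 0.10 to 3.06 (median 2.34). These 8 fetuses were 4 of 9 LW (557, 559, 572 and 575), 3 of 7 MS (623, 627 and 632), 1 of 9 LWMS (609) and 0 of 6 MSLW. They lay on 7 slides, and their share of probes above background was 59.2 to 72.1%, within the range of the other 23. Markers of 3 other cell types were high in them. Their mean glia and neuron marker signal (6 markers) was above that of all other fetuses of day 110 in 8 of 8. The same held for smooth muscle (7 markers) in 7 of 8 and for fibroblasts (9 markers) in 6 of 8, but for blood vessel cells in only 1 of 8. Macrophage markers had a median of -0.619 in the 8 and -0.618 in the other 23, fat cell markers -2.59 and -2.49, and red blood cell markers 1.098 and 0.98. Plasma protein genes of liver were at -3.55 in the 8 and -2.72 in the 23. In whole tissue, fewer cells of a type and less RNA per cell cannot be told apart. Whether the samples of these 8 fetuses held less mucosa, or came from the same sows, was not tested. The 8 were picked by the enterocyte markers after the values were seen, and the gap to the next fetus was small. The average age difference of each member is given with and without them. Because they were taken from day 110 alone, and were low for several members, leaving them out raises the day 110 means of these members by construction. Values without the 8 are therefore a description and no test of age.

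Of the 10 members, 5 were low in every one of these fetuses. APOB, MTTP, APOA2, APOA4 and APOM were lower in each of the 8 than in any of the other 23 fetuses of day 110. APOB and APOM were also below all 32 fetuses of day 90 in 8 of 8, MTTP and APOA2 in 7 and APOA4 in 6, while the enterocyte marker mean was below all of day 90 in 2 of 8. For MTTP the 8 fetuses lay at -1.21 to 4.74 (median 3.75) against 5.40 to 6.74 (median 6.33) in the other 23. For APOM they lay at 0.27 to 2.92 (median 1.53) against 4.31 to 6.75 (median 4.98). APOA1 and APOC3 were below all the others in 5 of the 8. APOC2 and APOD were within the range of the others or, in 2 fetuses for APOD, above it. APOE was above all the others in 1 of the 8, and its median was 3.001 in the 8 against 2.49 in the 23. MS fetus 632 was the lowest of day 110 for APOA1, APOA4, APOB, APOC3, APOM and MTTP, and the highest of day 110 for APOE, at 4.53. No test was made of these 8 against the rest, because they were chosen on their values. No share of all tested probes is given beside these counts, so they are not read as particular to the members.

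**Figure D1:**
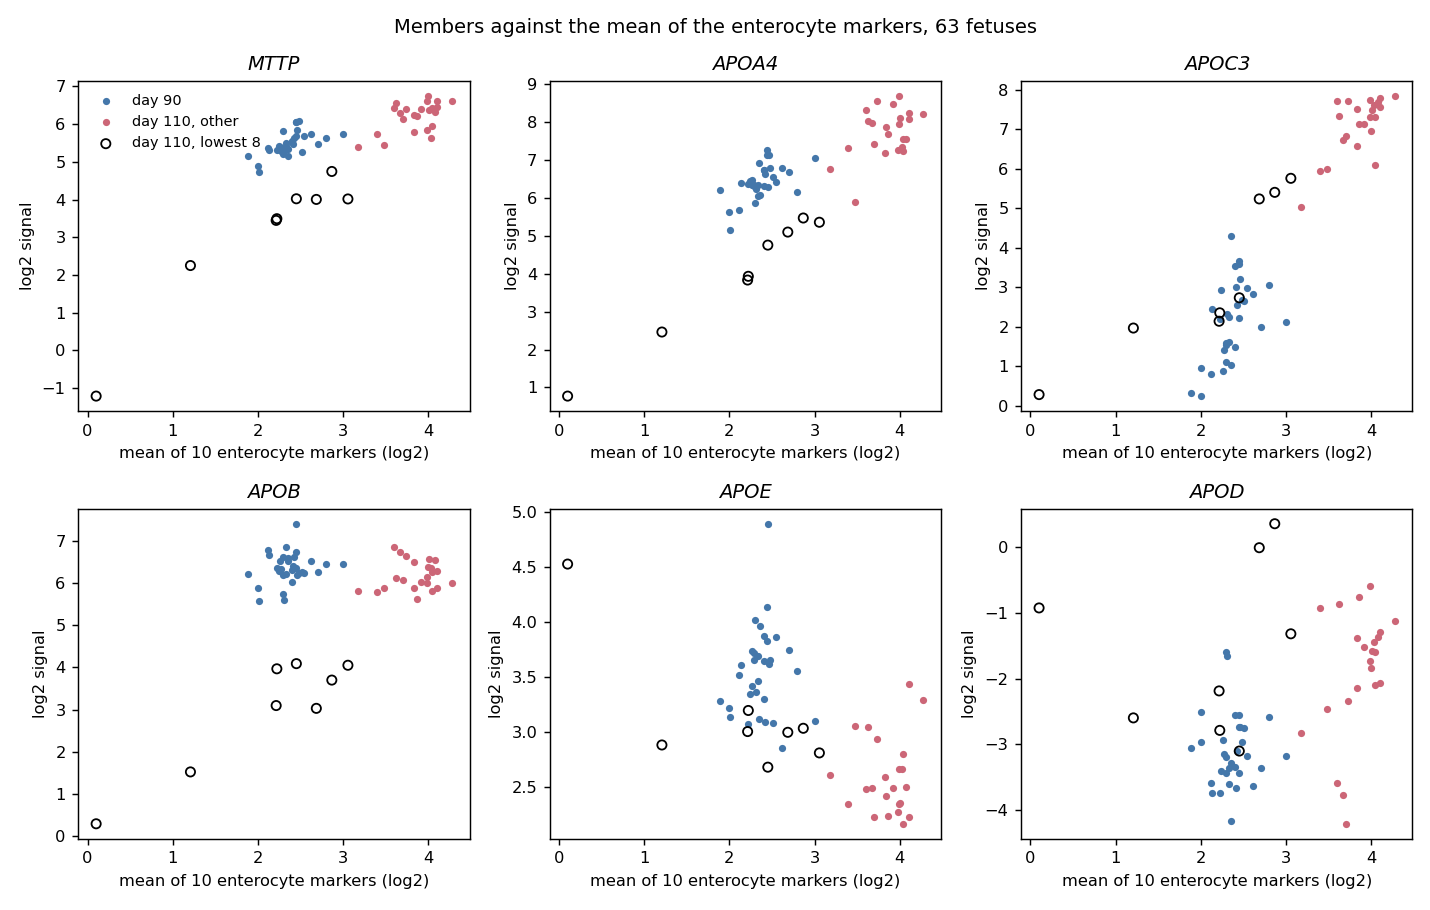
Log2 signal of MTTP, APOA4, APOC3, APOB, APOE and APOD (vertical axes) against the mean log2 signal of 10 enterocyte markers (horizontal axes) in the 63 fetuses, with the 8 low fetuses of day 110 as open circles. The 8 lie at or below a marker mean of 3.06 and sit under the other 23 fetuses of day 110 for MTTP, APOB and APOA4, but not for APOD and APOE.

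The comparison of ages asked which members change as birth approaches. Averaged over the 4 genotypes, 5 of the 10 genes passed the test, against 13.7% of all tested probes. APOC3 and APOD rose (6.12% of all probes rose), and APOB and APOE fell (7.62% of all probes fell). The fifth was APOC2, lower at day 110, which reached the test only through the group in which it was highest, so its difference is a description. By probe, 14 of the 25 passed, 9 of them higher at day 110. The test was limma with Benjamini-Hochberg adjustment over all 40515 probes, and a gene passed with an adjusted p no higher than 0.01 and a log2 difference of at least 0.5. The same thresholds in the 55 remaining fetuses mark 6 genes (18.7% of all probes), and 3 genes were shared between the counts, APOC3, APOD and APOE. The others were APOA2, APOA4 and MTTP, all 3 lower in each of the 8 fetuses than in any of the other 23, so their day 110 means had to increase when the 8 were left out. The median log2 difference over all tested probes was -0.02.

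**Figure D2:**
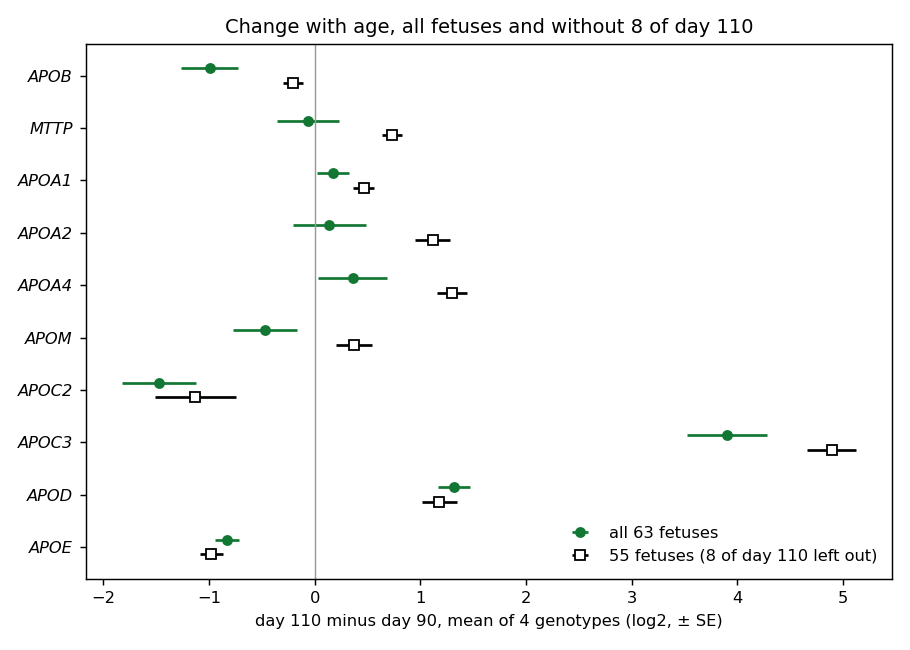
Change from day 90 to day 110 of each gene (log2 difference, mean of 4 genotypes, with the standard error), in all 63 fetuses and without the 8 fetuses of day 110 that were low in enterocyte markers. APOC3 changes most in both, at 3.90 and 4.89, and MTTP, APOA2 and APOA4 move to the right, at 0.73, 1.12 and 1.30.

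MTTP did not pass the test between ages, and its fetuses of day 110 spread widely. At day 90 its log2 signal was 5.21 to 5.49 in LW (median 5.33) and 5.28 to 6.07 in MS (median 5.62). It was 5.17 to 6.09 in LWMS (median 5.62) and 4.72 to 6.05 in MSLW (median 5.48). At day 110 it was 2.25 to 6.43 in LW (median 5.46) and -1.21 to 6.62 in MS (median 6.22), against 4.02 to 6.45 in LWMS (median 6.33) and 5.40 to 6.74 in MSLW (median 6.17). Fetuses of day 110 thus lay both above and below those of day 90: in LW, 4 of 9 exceeded every LW fetus of day 90 and 4 of 9 fell under every one of them. The mean difference was -0.06 (SE 0.29, adjusted p = 0.894). Once the 8 fetuses were left out, the difference was 0.73 (SE 0.10), and 16 of the 23 fetuses exceeded all 32 of day 90. In MSLW, from which no fetus was left out, the difference was 0.72 in both fits. With all fetuses it did not pass (SE 0.62, adjusted p = 0.507). In the fit without the 8 the same difference met the thresholds (SE 0.18, adjusted p = 0.00351). The standard error draws on the spread in all groups, which was smaller once the 8 were left out. That call is therefore a description and no test of age. The SD within groups was 0.095 to 0.46 at day 90 and reached 1.53 in LW and 2.85 in MS at day 110.

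APOB fell with age, and the difference was smaller without the 8 fetuses. Its log2 signal at day 90 was 5.73 to 6.84 in LW (median 6.40) and 5.58 to 6.73 in MS (median 6.27). It was 6.19 to 6.62 in LWMS (median 6.44) and 5.57 to 7.40 in MSLW (median 6.26). At day 110 it was 1.53 to 6.85 in LW (median 5.87), 0.30 to 5.9965 in MS (median 5.63), 4.05 to 6.63 in LWMS (median 6.35) and 5.78 to 6.39 in MSLW (median 5.91). The groups overlapped between ages in all 4 genotypes, and the fetuses of day 110 under the range of day 90 were 4 in LW, 3 in MS and 2 in LWMS. The difference averaged -0.99 (SE 0.27, adjusted p = 0.00225), a 1.99-fold fall, and without the 8 fetuses it was -0.20 (SE 0.10), which does not pass. A second APOB probe also passed (-1.05, adjusted p = 0.00599), and the third did not (-0.81, adjusted p = 0.0129).

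**Figure D3:**
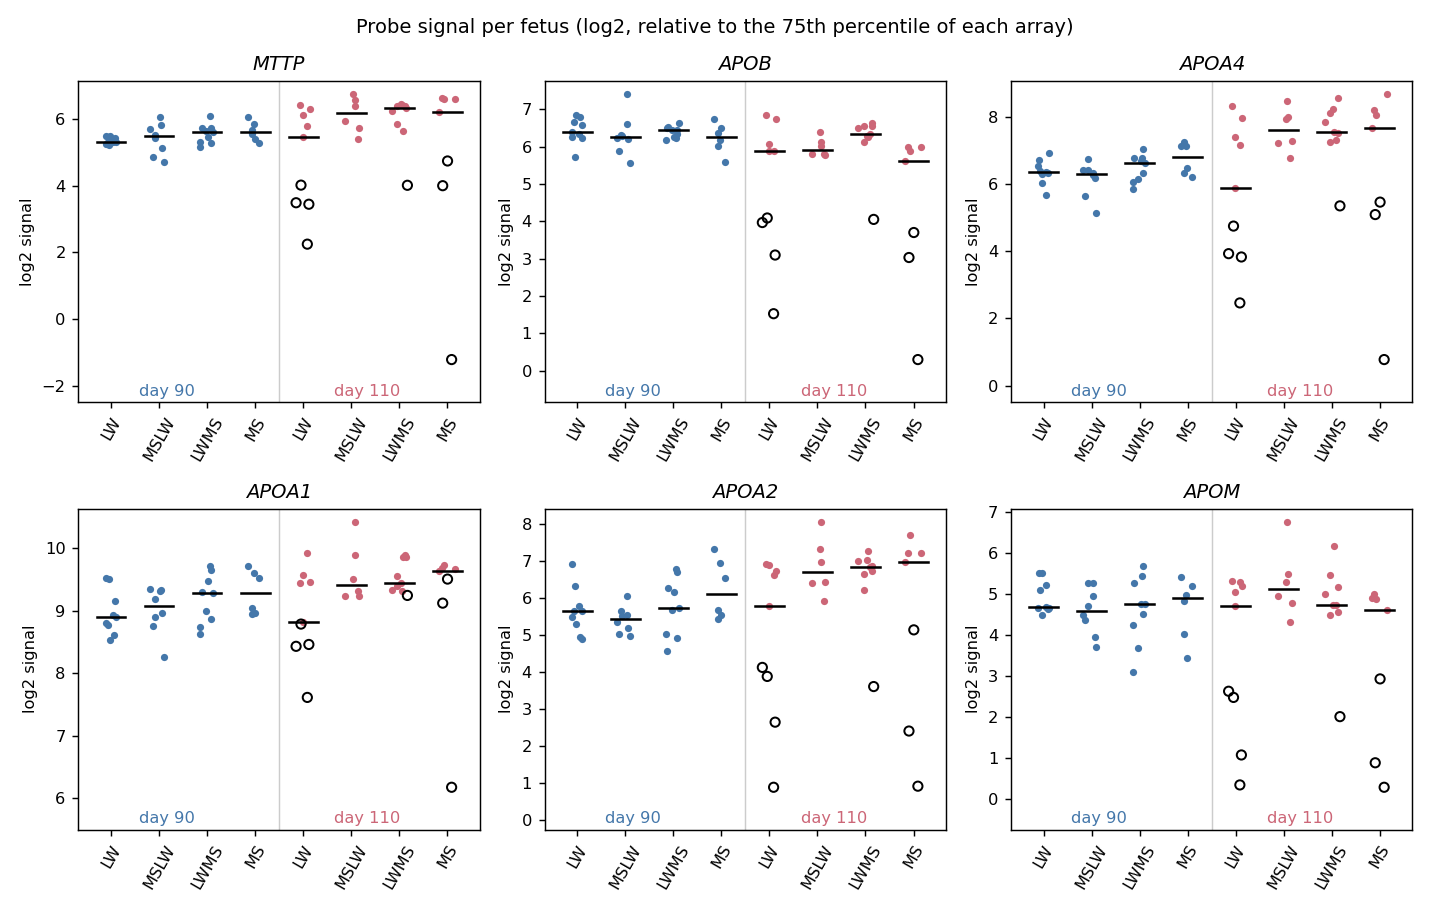
Log2 signal in each fetus, by genotype and day, of the members made and packed by the enterocyte, with a black bar at the median and open circles for the 8 low fetuses. MTTP at day 110 spans -1.21 to 6.62 in MS, against 5.28 to 6.07 at day 90.

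APOA4, which rises in the gut with fat absorption, was at 5.68 to 6.91 in LW (median 6.35) and 6.21 to 7.25 in MS (median 6.80) at day 90. It was at 5.86 to 7.05 in LWMS (median 6.62) and 5.13 to 6.73 in MSLW (median 6.30). At day 110 it was at 2.46 to 8.32 in LW (median 5.89), 0.77 to 8.67 in MS (median 7.68), 5.35 to 8.55 in LWMS (median 7.55) and 6.76 to 8.46 in MSLW (median 7.62). All 6 MSLW fetuses of day 110 were above all 8 of day 90, as were 8 of 9 LWMS fetuses for their genotype. The average difference of 0.36 (SE 0.33) did not pass (adjusted p = 0.414). Without the 8 fetuses, all of them below the other 23 for APOA4, it was 1.30 (SE 0.14).

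APOA2 did not pass either. It ranged over the groups from 4.58 to 7.32 at day 90, with group medians of 5.44 to 6.11. The medians at day 110 were 5.80 in LW, 6.99 in MS, 6.83 in LWMS and 6.71 in MSLW, with single fetuses as low as 0.89 in LW and 0.92 in MS. The average difference was 0.14 (SE 0.35, adjusted p = 0.792), and 1.12 without the 8 fetuses (SE 0.17).

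APOA1, the main protein of high density lipoprotein, did not pass by its brightest probe. Group medians were 8.91 (LW), 9.28 (MS), 9.29 (LWMS) and 9.08 (MSLW) at day 90. They were 8.82, 9.64, 9.45 and 9.41 in the same order at day 110, and the groups overlapped in every genotype. The difference of 0.18 (SE 0.15, adjusted p = 0.375) did not pass. Without the 8 fetuses it was 0.46 (SE 0.10), under the minimum of 0.5. The other 3 probes, which share the 25 bases shown above, did pass with all fetuses, with differences of 0.85 to 0.90 (adjusted p = 0.0059 to 0.00939). The call for APOA1 thus depended on the probe.

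APOM did not pass the test. Its group medians were 4.58 to 4.89 at day 90 and 4.61 to 5.11 at day 110, with lowest values at day 110 of 0.33 in LW, 0.27 in MS and 1.997 in LWMS. The difference was -0.47 (SE 0.30, adjusted p = 0.221) and, without the 8 fetuses, 0.37 (SE 0.17). The probe at the start of the message gave -0.78 (adjusted p = 0.0555).

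APOC3 changed most of the 10 genes. At day 90 its log2 signal was 0.79 to 4.31 in LW (median 2.26) and 0.88 to 3.68 in MS (median 3.37). It was 1.02 to 3.07 in LWMS (median 2.11) and 0.25 to 2.99 in MSLW (median 1.31). At day 110 it was 1.97 to 7.73 in LW (median 6.01), 0.29 to 7.84 in MS (median 7.14), 5.76 to 7.71 in LWMS (median 7.50) and 5.04 to 7.34 in MSLW (median 6.53). All fetuses of day 110 were above all of day 90 in LWMS and in MSLW, and 5 of 9 LW and 6 of 7 MS fetuses were above those of day 90 of their genotype. On average APOC3 rose by 3.90 (SE 0.38, adjusted p = 1.07e-12), which is 14.9-fold, and the difference without the 8 fetuses was 4.89 (SE 0.23). Day 110 exceeded day 90 on 8 of 8 slides, by 2.27 to 5.26. Its second probe gave 3.97.

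Within genotypes, with all fetuses, the difference of APOC3 was 5.09 in LWMS (SE 0.70, adjusted p = 1.84e-07), 34.0-fold, and 4.88 in MSLW (SE 0.80, adjusted p = 1.58e-05), 29.4-fold. In LW it was 2.58 (SE 0.70, adjusted p = 0.00985), and in MS 3.06 (SE 0.83, adjusted p = 0.0134), which missed the threshold. The test of MS against LW in this change gave 0.48 (SE 1.08, adjusted p = 1). Leaving out the 8 fetuses brought the genotypes close together, with 4.65 (SE 0.46) in LW, 4.77 (SE 0.53) in MS and 5.27 (SE 0.40) in LWMS, beside the 4.88 of MSLW, which lost no fetus. The call in LW was close to its threshold and was lost in several alternatives listed with the processing.

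APOC2 was near the floor of the array in most fetuses. At day 90 it was well above background in 2 of 9 LW, 6 of 6 MS, 5 of 9 LWMS and 3 of 8 MSLW fetuses, and at day 110 in 0 of 9, 2 of 7, 1 of 9 and 1 of 6. The LW signal of day 110 is thus only a bound. Group medians were -5.93 (LW), -4.32 (MS), -4.70 (LWMS) and -5.25 (MSLW) at day 90. They were -6.53, -7.16, -6.87 and -6.78 in the same order at day 110, and the groups overlapped in every genotype. The difference of -1.47 (SE 0.35, adjusted p = 0.00049) became -0.20 (adjusted p = 0.255) with another background correction, normexp, and the call was lost. With the LW signal of day 110 at its bound, no fall can be stated for LW. The filter was passed only through MS fetuses of day 90, where the signal was highest, which favours a lower value in every other group. The difference was -1.13 (SE 0.38) without the 8 fetuses.

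APOE, which many cell types make, macrophages and glia among them, fell. At day 90 its log2 signal was 3.07 to 3.88 in LW (median 3.52) and 3.36 to 4.14 in MS (median 3.69). It was 2.86 to 4.02 in LWMS (median 3.56) and 3.14 to 4.90 in MSLW (median 3.33). At day 110 it was 2.23 to 3.20 in LW (median 2.68), 2.23 to 4.53 in MS (median 2.998), 2.17 to 3.44 in LWMS (median 2.50) and 2.34 to 3.05 in MSLW (median 2.63). All 6 MSLW fetuses of day 110 were under all 8 of day 90, and 8 of 9 LW, 7 of 9 LWMS and 6 of 7 MS fetuses were under those of day 90 of their genotype. The average difference was -0.83 (SE 0.11, adjusted p = 2.84e-08), a 1.77-fold fall, and day 110 was lower on 8 of 8 slides. The fall was -0.87 in LWMS (adjusted p = 0.0017) and -0.94 in MSLW (adjusted p = 0.00568), and -0.72 in LW (adjusted p = 0.0171) and -0.77 in MS (adjusted p = 0.0428) did not pass. With the arrays centred on their medians both crossbred calls were lost, at -0.74 in LWMS (adjusted p = 0.0343) and -1.01 in MSLW (adjusted p = 0.0181). Without the 8 fetuses the average was -0.98 (SE 0.11). The probe at the start of the message gave -1.18 (adjusted p = 3.34e-09). Beside this, the mean macrophage marker signal (10 of 11 markers tested) was -2.05 to 0.31 in the fetuses of day 90 and -1.51 to 0.00 in those of day 110. Of these 10 markers 3 were higher at day 110, and 1 passed, as higher. Of 9 fibroblast markers 2 were higher and 4 passed as lower. Of 6 glia and neuron markers 0 were higher and 2 passed as lower, where 7.62% of all probes passed as lower. The part of these cells in the fall of APOE was not tested.

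APOD rose with age, and with equal weight on each array it was the only member that passed the test between the breeds. At day 90 its log2 signal was -4.17 to -1.59 in LW (median -3.61) and -2.94 to -1.66 in MS (median -2.65). It was -3.64 to -2.59 in LWMS (median -3.17) and -3.44 to -2.51 in MSLW (median -3.18). At day 110 it was -4.21 to -1.39 in LW (median -2.79), -1.29 to 0.35 in MS (median -0.76), -2.34 to -1.32 in LWMS (median -1.60) and -2.83 to -0.87 in MSLW (median -1.68). The ages did not overlap in MS and LWMS, 5 of 6 MSLW fetuses were above those of day 90, and only 1 of 9 LW fetuses was. On average APOD rose by 1.32 (SE 0.15, adjusted p = 9.45e-11), 2.50-fold, and its 4 probes gave 1.30 to 1.38. The difference without the 8 fetuses was 1.18 (SE 0.16). It rose by 1.91 in MS (adjusted p = 3.85e-05), 1.46 in LWMS (adjusted p = 6.13e-05) and 1.45 in MSLW (adjusted p = 0.000878), and the difference of 0.46 in LW did not pass (adjusted p = 0.32). The test of the difference between MS and LW in this change gave 1.46 (SE 0.42, adjusted p = 0.247). Day 110 was higher on 7 of 8 slides.

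**Figure D4:**
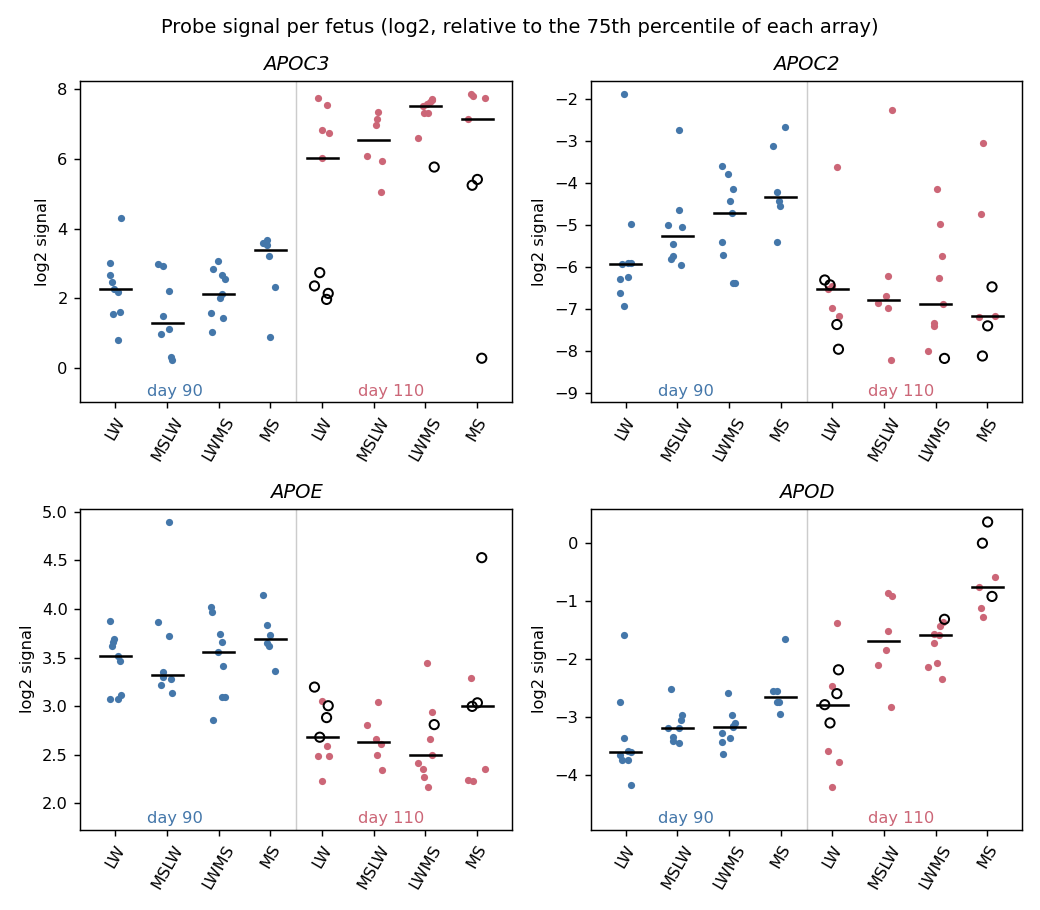
Log2 signal in each fetus, by genotype and day, of the members that are exchanged between lipoproteins or made by many tissues, with a black bar at the median and open circles for the 8 low fetuses. All 7 MS fetuses lie above all 9 LW fetuses for APOD at day 110, and the APOE median is lower at day 110 in each genotype.

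By genotype, 1 member passed the age comparison in LW (APOC3, against 4.77% of all probes) and 1 in MS (APOD, against 3.17%). In LWMS 3 passed (9.88% of all probes) and in MSLW 3 passed (5.41%), and these were APOC3, APOD and APOE in both. Without the 8 fetuses, 5 LW and 4 MS fetuses remained at day 110, and the values by genotype are a description. MTTP then differed by 0.67 in LW, 0.88 in MS and 0.65 in LWMS, and APOA4 by 0.99, 1.3998 and 1.32 in the same order. In MSLW, with no fetus left out, APOA4 differed by 1.48 (adjusted p = 0.165) and APOA2 by 1.44 (adjusted p = 0.206). Neither passed with all 63 fetuses. In the fit without the 8 the same differences met the thresholds (adjusted p = 7.58e-05 and 0.000808). Their standard errors draw on the spread in all groups, which was smaller once the 8 were left out, so these too are a description. An F test across the 8 groups of all 63 fetuses, at an adjusted p under 0.01, passed for APOB, APOC3, APOD and APOE, 4 of the 10 genes, against 28.8% of all probes.

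**Figure D5:**
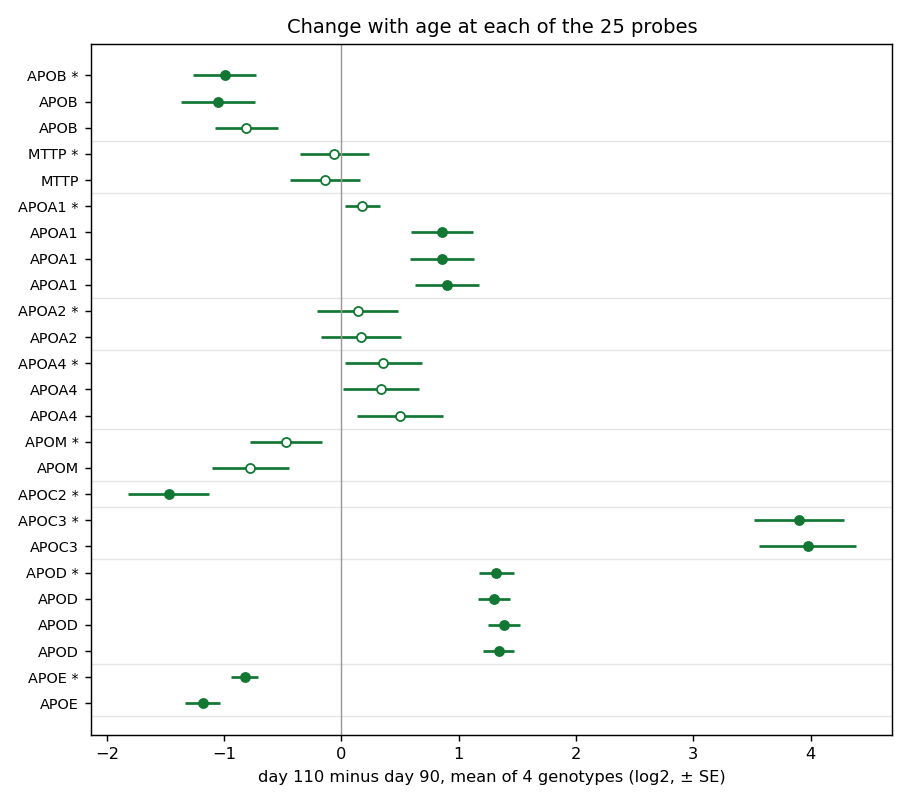
Change from day 90 to day 110 at each of the 25 probes (log2 difference, mean of 4 genotypes, with the standard error), with filled points for probes that passed the test and a star for the brightest probe of a gene. The 4 APOD probes agree at 1.30 to 1.38, and for APOA1 the brightest probe lies at 0.18 and the other 3 at 0.85 to 0.90.

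The comparison of breeds asked whether MS fetuses differ from LW fetuses at the same age. At day 90, 0 of the 10 genes passed (3.59% of all probes), with limma and the same thresholds. An unadjusted p under 0.05 was found for APOD, at 0.82 as MS minus LW (adjusted p = 0.0983). It was also found for APOC2, at 1.57 (adjusted p = 0.216), but APOC2 reached the test through MS fetuses of day 90 alone, so this value restates the filter. At day 110 only APOD passed (5.01% of all probes), in the fit that gives each array equal weight. It was 2.28 higher in MS (SE 0.29, adjusted p = 4.26e-08), which is 4.85-fold, with all 7 MS fetuses above all 9 LW fetuses. In the fit that leaves out the 8 fetuses it was 2.14 (SE 0.39). When arrays were weighted by their agreement with their group, 6 members passed at day 110, all higher in MS. The 5.01% of all probes is from the equal-weight fit, so this count stands without a share beside it. APOD was then at 2.16, APOC3 at 2.84 (adjusted p = 0.00139), APOA4 at 2.23 (adjusted p = 0.000656) and APOA2 at 2.05 (adjusted p = 0.004). MTTP turned from -0.01 to 1.49 (adjusted p = 0.00356), and APOA1 was at 0.74 (adjusted p = 0.00615). The breed differences of these 5 members at day 110 thus depended on the weighting. With equal weights the differences of MTTP (-0.01, SE 0.58) and APOB (-0.54, SE 0.53) at day 110 had wide errors, so these data do not show that the breeds were alike.

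Parental breed was tested over both ages at an adjusted p under 0.05. APOD was the member that passed, for the breed of the sow (15.9% of all probes) and for that of the sire (6.97%). It was higher by 0.75 (SE 0.15, adjusted p = 0.000181) in fetuses of MS sows and by 0.80 (SE 0.15, adjusted p = 0.000109) in fetuses of MS sires. At day 110 the crossbred medians lay between those of LW and MS. Without the 8 fetuses the difference of APOD was 0.70 for the sow (SE 0.16) and 0.78 for the sire (SE 0.16). In that fit APOC3 (0.70, adjusted p = 0.028) and APOA4 (0.43, adjusted p = 0.0324) also met the threshold for the sow (16% of all probes). With all fetuses APOC3 was at 0.75 (adjusted p = 0.175) and APOA4 at 0.29 (adjusted p = 0.578). The 8 were left out after the values were seen, and the spread that the standard errors draw on was then smaller. Both calls are therefore a description and no test of the sow. With array weights the sow comparison also called APOC3 (1.16, adjusted p = 0.00415), APOA4 (0.73, adjusted p = 0.0139), APOA1 (0.26, adjusted p = 0.0351) and MTTP (0.46, adjusted p = 0.0496). The 15.9% of all probes is from the equal-weight fit, and no share is given for the weighted one. MS fetuses and fetuses of MS sows also had higher signals of some macrophage markers. Of 10 markers tested, 9 were higher for MS sows and 5 of them passed. In MS at day 110, 9 of 10 were higher and 2 passed, CD163 (1.04, adjusted p = 0.00504) and MSR1 (1.01, adjusted p = 0.00816). For MS sires 1 of the 10 passed, 2 were higher and the median was -0.07. Of 6 glia and neuron markers, 1 passed between the breeds at day 110, S100B, higher in MS by 0.81 (adjusted p = 0.0012). The median of the 6 was 0.08. For the sow 2 of the 6 passed, 1 in each direction, and for the sire 1, which was higher. Of 4 fat cell markers, 0 passed between the breeds at day 110 and 3 were higher in MS, with a median of 0.53. For the sow 1 passed, higher for MS sows, and for the sire 0. Fibroblast and blood vessel markers went the other way at day 110, where 0 of 9 and 0 of 6 were higher in MS. Of these, 0 fibroblast markers and 1 blood vessel marker passed. For the sow 1 marker of each type passed and for the sire 2 of each, all lower with an MS parent. The part of these cells in the APOD difference was not tested.

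No member passed an interaction of breed with age. The breed by age test called 0 of 10 genes (0.0173% of all probes). The sow by age test called 0 (0.388%), and the sire by age test called 0 (0% of all probes, 0 of 40515, with 708 at an unadjusted p under 0.05). APOD had an unadjusted p under 0.05 in all 3, with 1.46, 0.73 (adjusted p = 0.308) and 0.73 (adjusted p = 1). Crossbred against purebred fetuses likewise called 0 of 10 genes (0.18% of all probes). As crossbred minus purebred, the differences were 0.73 for APOB (adjusted p = 0.304), 0.66 for APOM (adjusted p = 0.435), 0.66 for APOA4 (adjusted p = 0.492) and 0.61 for MTTP (adjusted p = 0.465). Of the 8 low fetuses, 7 were purebred, and without them the values were 0.07 for APOB, -0.01 for APOM, -0.14 for APOA4 and -0.06 for MTTP.

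Members also varied together from fetus to fetus within groups. Since the 8 fetuses form a cluster, no r between members is given over all fetuses. Group means were removed, all 45 pairs of genes were tested by 100000 permutations of fetuses within groups, and p-values were adjusted over the 45 pairs, with 1e-05 as the smallest p that this number can give. Among the 32 fetuses of day 90, 16 pairs passed at an adjusted p under 0.05 and 15 of these were positive. No share over pairs of other probes is given, so the count is not read as particular to the members. It includes APOC2 with APOE (r = 0.46, permutation p = 0.0085, adjusted p = 0.026), although APOC2 was well above background in only 20 of the 63 fetuses. The strongest was APOA1 with APOA2, with Pearson's r = 0.84 (permutation p = 1e-05, adjusted p = 0.00015) and Spearman's rho = 0.85 (permutation p = 1e-05). The r was 0.86 without the 2 fetuses farthest from the median and 0.83 with slide means removed. APOA2 and APOM gave r = 0.81 (permutation p = 1e-05, adjusted p = 0.00015) and rho = 0.82 (permutation p = 1e-05), with r = 0.80 without 2 fetuses and 0.82 with slide means removed.

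The assembly pair was among them. APOB and MTTP gave r = 0.65 (permutation p = 0.00018, adjusted p = 0.0012) and rho = 0.52 (permutation p = 0.0038) at day 90, with r = 0.45 without 2 fetuses and 0.62 with slide means removed. The single negative pair was APOB with APOD, with r = -0.56 (permutation p = 0.00069, adjusted p = 0.0031) and rho = -0.47 (permutation p = 0.008), and with r = -0.64 without 2 fetuses and -0.59 with slide means removed. Among the 23 other fetuses of day 110, 10 pairs passed and all were positive, again without a share over pairs of other probes. APOA4 and MTTP gave r = 0.83 (permutation p = 3e-05, adjusted p = 0.0013) and rho = 0.84 (permutation p = 4e-05), with r = 0.76 without 2 fetuses and 0.77 with slide means removed. APOB and MTTP gave r = 0.73 (permutation p = 0.00021, adjusted p = 0.0031) and rho = 0.75 (permutation p = 0.00025) there, with r = 0.72 without 2 fetuses and 0.51 with slide means removed. The pairs share the array and the tissue sample of each fetus.

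The genes whose log2 signal was most like that of each member were sought among 9781 named genes by Pearson's r over the 63 fetuses. These values are a description without a test, they include the age difference, and they lean on the 8 low fetuses. For MTTP they were MME, a brush border peptidase (0.96), SLC34A3 (0.96) and SLC2A2, a basolateral hexose carrier (0.96). MTTP and MME correlated at 0.77 among the fetuses of day 90 and 0.85 among the 23 of day 110. For APOA4 they were MME (0.96), FABP2, the intestinal fatty acid binding protein (0.95), and MPP1 (0.95). FABP2 was also among the top genes for APOA2 (0.93) and APOA1 (0.89), and SLC39A5, a zinc carrier, for both (0.92 and 0.90). MMP25 was the third for APOA2 (0.92), and it was a top gene of APOM as well.

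For the other members, APOC3 was most like MFSD2A, a carrier of lysophospholipids (0.96; 0.71 at day 90 and 0.82 among the 23), and GNA11 (0.93) was also among its top genes. APOB was most like CTSC (0.90), OAT (0.90) and SLC5A11 (0.89), but its r with CTSC was 0.44 at day 90 and 0.37 among the 23. Its r with OAT was 0.30 at day 90 and 0.72 among the 23. APOM was most like PDZK1 (0.88), PDZK1IP1 (0.87) and MMP25 (0.87), and within ages its r was 0.53 and 0.29 with PDZK1 and 0.32 and 0.25 with MMP25. APOE was most like GAS6 (0.82), HOXA5 (0.79) and KLHDC9 (0.78). Its r with GAS6 was 0.65 at day 90, but 0.02 among the 23 fetuses. For APOD the top genes were SOCS2 (0.76, over 62 fetuses), TCEA3 (0.75) and SDCBP2 (0.74). For APOC2, which was well above background in only 20 of the 63 fetuses, such an r rests mostly on signals near the floor, and no neighbours are named.

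Genes around the pathway were read from 5 lists, of which the genes with the lowest p-values for age are named. The values are from all 63 fetuses, and each count called for age stands against the 13.7% of all probes called. In chylomicron assembly and export, 14 of 20 listed genes were tested and 3 passed the age comparison. LMAN1, a cargo receptor between endoplasmic reticulum and Golgi, rose by 0.70 (SE 0.08, adjusted p = 2.71e-11). PREB, which starts the assembly of COPII vesicles, rose by 0.57 (SE 0.07, adjusted p = 1.72e-10), and PLTP, the phospholipid transfer protein, fell by 0.69 (SE 0.14, adjusted p = 3.58e-05). The coat protein gene SEC24C differed by 0.37 (adjusted p = 2.11e-06), under the minimum. The median difference of the list was 0.27, against -0.02 over all tested probes.

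In fat uptake and triglyceride synthesis, 2 of 14 tested genes passed, near the share of 13.7% over all probes, and the median was 0.06. FABP1, a fatty acid binding protein of liver and gut, rose by 2.55 (SE 0.16, adjusted p = 1.60e-19). PLIN2, which coats lipid droplets, fell by 0.93 (SE 0.10, adjusted p = 1.65e-11). The acyl-CoA synthetases ACSL3 (0.68, adjusted p = 0.0183) and ACSL5 (0.51, adjusted p = 0.021) did not pass.

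Among 8 tested apolipoproteins outside the 10, only APOH passed, which fell by 3.40 (SE 0.54, adjusted p = 5.99e-07), and the median was -0.22. Beside this, of 6 tested plasma protein genes of liver 1 was higher at day 110 and 4 passed as lower, AFP by 3.23. APOH was well above background in 48 of the 63 fetuses, ALB in 30 and FGB in 13, so some of these signals were near the floor. Of 12 tested lipoprotein receptors, lipases and exchange proteins 3 passed, with a median of 0.20. LPL, the lipase that APOC2 activates and APOC3 restrains, rose by 0.72 (SE 0.13, adjusted p = 4.72e-06). The endocytic receptor genes LRP2 (-1.37, adjusted p = 0.000231) and CUBN (-0.96, adjusted p = 0.0027) fell, and SCARB1 (0.36, adjusted p = 0.00441) was under the minimum.

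Of 19 tested transcription factors linked to apolipoprotein and MTTP genes, 4 passed for age (13.7% of all probes did), with a median of 0.07. PPARGC1A, a coactivator of mitochondrial and lipid genes, rose by 1.05 (SE 0.09, adjusted p = 1.80e-15), RORA rose by 1.66 (SE 0.25, adjusted p = 1.51e-07), and HNF4G rose by 0.53 (SE 0.14, adjusted p = 0.00134). NR5A2 fell by 0.70 (SE 0.08, adjusted p = 3.40e-11), and ESRRA (0.47, adjusted p = 0.000132) was under the minimum. For the breed of the sow, 6 of the 19 factors passed, 4 of them higher for MS sows, as did 6 of the 12 receptors, lipases and exchange proteins, 3 of them higher, against 15.9% of all probes. In the fat uptake and the chylomicron assembly lists 1 of 14 passed for the sow, and among the other apolipoproteins 1 of 8. Of the 10 enterocyte markers themselves, 9 were higher at day 110, with a median of 1.16. As higher, 6 passed (6.12% of all probes did), among them ALPI by 2.47 and DPP4 by 1.70, while ANPEP fell by 0.59. The part of these markers' cells in the changes of the members was not tested.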

How the data were processed

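Jejunal RNA of 63 male fetuses was labelled with Cy3 and hybridised to Agilent 60-mer arrays on 8 slides, and fetuses were grouped from the sample labels. The authors deposited scanner files from Agilent Feature Extraction 10.10.1.1 (name and version per the submitters' processing notes), in which spot intensity is given after background correction. They also deposited a matrix of log2 values of 39446 probes, with column medians of 8.61, which correlates with quantile-normalized log2 median signal at r of 0.9987 or more per array and served as an alternative. Per the study's methods its signals were normalized and then log2-transformed, without further detail of the normalization, and its probes hold 24 of the 25 members' probes, all but that of APOC2.

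Here the log2 of the corrected intensity was taken minus the 75th percentile of its array. Without control spots, and with outlier spots set to missing (2775 tested probes lack a value), spots of a probe were averaged. A probe stayed in if at least 75% of the arrays in any group had it well above background. Background subtraction makes changes near the floor uncertain. The means of 8 groups were fitted with limma 3.58.1 in R 4.3.3, with p-values two-sided and Benjamini-Hochberg adjusted over all 40515 probes. For age and for breed within age the thresholds were an adjusted p of 0.01 and a log2 difference of 0.5. The random effect of the sow in the study's model could not be fitted, and each slide held several groups. The steps were tested on simulated data. The number of arrays limits the precision.

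Members, gene lists and tests were chosen with earlier results of these data known. All 10 members are described by their brightest probe, the lists by the genes with the lowest p for age, and other fetuses or genes were named after their values were seen. No genome was used, so no positions are given.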

Additional observations from a re-analysis of the deposited data

Results flagged for a closer look

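In each of 80 sets (10 genes in 8 groups) the highest and lowest fetus was compared with the rest of its group by Dixon's ratio, and 14 sets held a fetus that stood apart. Chance marks about 1 in 20 such sets. Of these, 8 were in fetuses 609 and 632, both among the 8 fetuses of day 110 that were low in enterocyte markers. LWMS fetus 609 was low for APOA2 (log2 signal 3.61), APOA4 (5.35), APOB (4.05), APOM (1.997) and MTTP (4.02), and MS fetus 632 was low for APOA1 (6.17), APOC3 (0.285) and MTTP (-1.21).

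The other 6 were fetuses that stood above their group. For APOC2 these were LW fetus 469 of day 110 (-3.61), LW fetus 484 of day 90 (-1.88), MSLW fetus 851 of day 110 (-2.25) and MSLW fetus 450 of day 90 (-2.73). APOC2 was well above background in 0 of 9, 2 of 9, 1 of 6 and 3 of 8 fetuses of these groups, so its 4 sets compare signals mostly near the floor. MS fetus 532 of day 90 was high for APOD (-1.66), and MSLW fetus 450 was high for APOE (4.90). The mean signal of 4 fat cell markers was -1.14 in fetus 484, -1.20 in fetus 532, -0.78 in fetus 851 and -1.98 in fetus 469, each the highest of its group. In fetus 450 the mean of 10 macrophage markers was -2.05, the lowest of its group. The arrays of fetuses 469, 532 and 851 were on the same slide. Fetus 851 had 3971 outlier spots and fetus 532 had 1417, the 2 highest numbers of the 63 arrays, and fetus 469 had the lowest share of probes above background, 51.2%. The part of these cells and of these arrays in the values was not tested.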

How the results depend on the processing

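The counts of members called were recomputed under each alternative. The count of 5 for age over genotypes became 3 with only probes above background on every array, where 8 genes were tested, and 4 with normexp, which lost APOC2, and with the authors' values, which do not hold it. In LW the count of 1 became 0 with median centring, no filter, the slide as a block, 61 fetuses (without LW fetuses 484 and 469), without the array with the most probes above background, with outlier spots kept, with the mean of all probes and with purebred fetuses alone. It became 2 with array weights, which lost APOC3 (1.88, adjusted p = 0.0178) and gained APOB (-1.90) and APOM (-1.67), and 3 without the 8 fetuses low in enterocyte markers. In MS the count of 1 became 2 with the authors' values, 0 with only probes above background on every array, 3 with array weights and 5 without the 8 fetuses. In LWMS and in MSLW the count of 3 became 6 without the 8 and 2 with median centring, which lost APOE, and in LWMS it became 4 with array weights, which gained APOC2 (-1.71, adjusted p = 0.00706). Without the 8, 8.54% of all probes passed for age in LW, 6.51% in MS, 13.6% in LWMS and 8.95% in MSLW. For the sow it was 16%. No share is given for the other alternatives. Counts without the 8 rest on fetuses left out of day 110 alone after the values were seen, and are no test of age or of parental breed. From MSLW no fetus was left out, and its differences stayed the same. Its count rose with smaller standard errors, which draw on the spread in all groups (for MTTP 0.62 and 0.18). For MS minus LW, 0 at day 90 became 1 with 61 fetuses (APOD, 1.04, adjusted p = 0.00613). Fetus 484, left out there, had the highest APOD signal of LW at day 90 (-1.59). Leaving it out raises this difference by construction, so that call is a description. At day 110, 1 became 0 with only probes above background on every array and 6 with array weights. For the sow, 1 became 0, 5 and 3 with only probes above background on every array, array weights and without the 8, and for the sire 1 became 0 with only probes above background on every array, which leaves APOD out. The cause of the other changes was not tested. Of 216 checks of called differences, 202 kept the call, 14 lost it and 0 reversed. Of 1555 checks of differences that were not called, 33 became called, 17 of them without the 8 and 14 with array weights, and 99 turned sign, of which 5 were among the 33: MTTP for MS minus LW at day 110 with array weights (1.49) and, without the 8, MTTP for age on average (0.73), in LW (0.67) and in MS (0.88) and APOA4 in MS (1.3998). No paired analysis was possible because each fetus number occurs in 1 group only. Signals near background limit APOC2 and, in part, APOD.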
